A study of Cricetulus griseus with 9 samples.

Results

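Laminins, nidogens, the heparan sulfate proteoglycans perlecan and agrin, and the laminin receptor dystroglycan were examined at the transcript level in CHO-K1 cells, a line from Chinese hamster ovary. The set was given as mouse Ensembl gene identifiers for Lama5, Lamb1, Lamb2, Lamc1, Nid1, Nid2, Hspg2, Agrn and Dag1, and all 9 were found among the 15557 genes of the expression table. The deposited files carry identifiers without names, so the pairing of identifier and symbol comes from the list that defined the set.

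The cells had been transfected for 48 h, by lipid reagent, with a pre-miR (pre-miR-29b-1 or else pre-miR-29a) or with the inhibitor anti-miR-29a, and each group had 3 libraries. A pre-miR is a synthetic precursor that adds the microRNA it is named for, and an anti-miR is an inhibitor, which the submitters describe as blocking both miR-29b-1 and miR-29a. The anti-miR-29a libraries therefore represent cells with miR-29 inhibited rather than unmanipulated cells, and no untransfected or control-RNA cells were analysed here. The labels do not tie libraries to separate cultures, so the p-values below measure the spread between libraries, which may be technical. The series text speaks of separate transfection experiments without saying whether each held all 3 molecules. If each held 1, experiment and group cannot be told apart.

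Basement membranes are thin sheets of matrix on which cells rest. Laminins are trimers of 1 alpha, 1 beta and 1 gamma chain that polymerise on the cell surface, and nidogens bind the laminin gamma-1 chain and link it to collagen IV and perlecan. Dystroglycan and integrins hold the laminin network on the cell, and perlecan and agrin, which bind dystroglycan too, add heparan sulfate chains. MicroRNAs of the miR-29 family pair with messenger RNAs through a shared seed and lower them, and matrix genes are among their best known targets. In human cells these include LAMC1.

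Implied depth lay between 18500000 and 20780000 reads in the pre-miR-29b-1 libraries, between 16550000 and 18940000 in the pre-miR-29a libraries, and between 15100000 and 17750000 in the anti-miR-29a libraries. Implied depth was thus lowest on average in anti-miR-29a cells, with ranges that overlapped between neighbouring groups, and its part in the results was not tested. It is the divisor read from the FPKM and need not equal the reads sequenced, since the scaling used is not given. Expression is given in FPKM, fragments per kilobase of coding model scaled by library size, which allows levels to be compared between genes. Every gene of the set apart from Nid2 rested on at least 2123 implied reads in each library. The identity of the line could not be checked against marker genes, because the files do not name genes. Pre-miR-29a replicate 1 had the highest value of its group for every member, and it stands apart from its group in other genes as well, with the lowest weight of the 9 libraries, 0.213, when limma estimated weights from the spread of all tested genes. Without it, the 8 members tested in pre-miR-29a cells all kept their call against anti-miR-29a, with log2 fold changes between -1.64 for Dag1 and -0.47 for Agrn. Leaving out the highest library lowers the group mean of every member, so this fit is no check on these falls.

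On the CriGri_1.0 hamster assembly, each gene had 1 model on 1 scaffold, built from a mouse protein and so made of coding exons. Lamc1 (ENSMUSG00000026478) spans JH000342 from 807984 to 923082 (minus strand, 28 coding exons), and Lama5 (ENSMUSG00000015647) spans JH000364 from 109640 to 156070 (minus strand, 79 exons). Lamb1 (ENSMUSG00000002900) lies on JH001117 from 275770 to 343756, minus strand, with 33 exons, and Lamb2 (ENSMUSG00000052911) on JH001800 from 27387 to 39187, plus strand, with 32. These laminin models hold between 1561 residues for Lamc1 and 3697 for Lama5. Nid1 (ENSMUSG00000005397) lies on JH000829 from 733303 to 783079, plus strand, and Nid2 (ENSMUSG00000021806) on JH001698 from 244544 to 303212, minus strand. The Nid1 model is the shorter, with 10 exons and 750 residues against 21 exons and 1382 residues for Nid2, and 225 of its bases are shared with ENSMUSG00000078141, which is listed at 0 FPKM in all 9 libraries. Whether a model covers the whole protein was not checked, so these lengths need not be those of the proteins. Hspg2 (ENSMUSG00000028763) runs over 96 exons on JH000406 from 218043 to 284445, minus strand, Agrn (ENSMUSG00000041936) over 39 exons on JH001219 from 21039 to 41269, plus strand, and Dag1 (ENSMUSG00000039952) over 2 exons on JH000209 from 1879191 to 1889783, minus strand. No other member shares bases with another gene. The annotation lists the same exons 2 times for Lamc1, Lamb1 and Hspg2.

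Transcripts of the laminin chains, Nid1 and Dag1 were lower with both pre-miRs than in anti-miR-29a cells, and the size of the difference was graded. Dag1, Lamc1 and Nid1 stood at 33.8% to 44.1% of their anti-miR-29a means, Lama5, Lamb1 and Lamb2 at 50.9% to 76.3%, and Agrn at 76.7% to 82.5%. Hspg2, which encodes perlecan, fell in pre-miR-29a cells and stood at 100.2% of its anti-miR-29a mean in pre-miR-29b-1 cells. Between the pre-miRs Hspg2 did not pass (adjusted p 0.220, limma), though this depended on how the pre-miR-29a libraries entered the fit. Nid2 was too low to enter the tests.

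**Figure D1:**
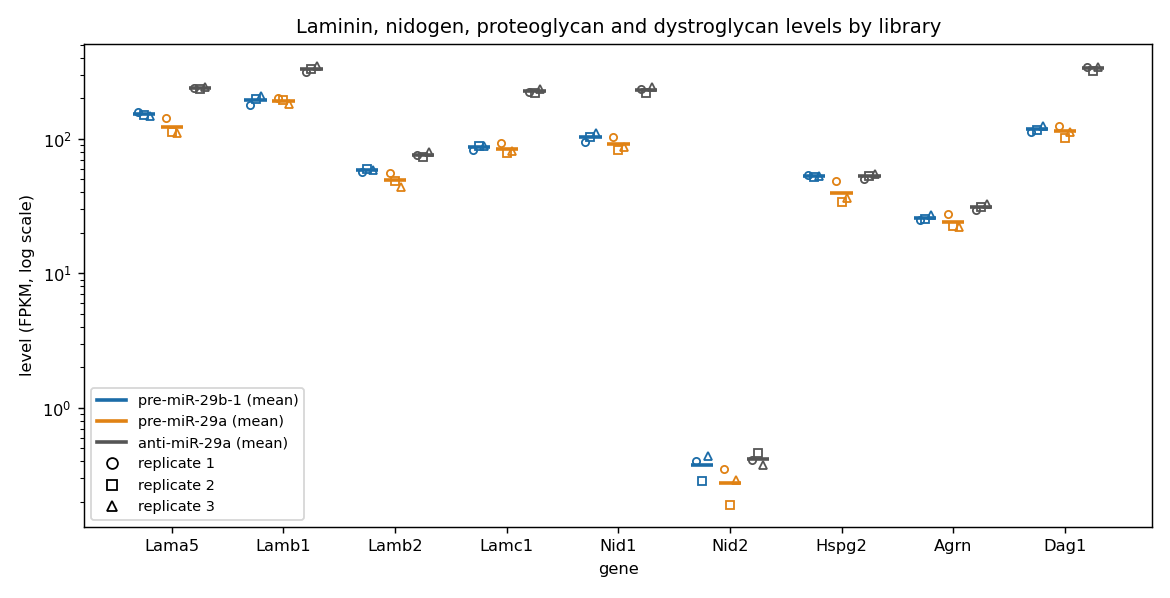
FPKM of each gene on a log scale, by library, with pre-miR-29b-1 left, pre-miR-29a in the middle and anti-miR-29a right within each gene. Symbols mark replicates and bars group means. Lamc1, Nid1 and Dag1 show the widest gaps to anti-miR-29a, Hspg2 libraries of pre-miR-29b-1 lie among those of anti-miR-29a, and Nid2 lies under 0.5 FPKM in every library.

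With anti-miR-29a, Dag1 had the highest mean of the set at 336 ± 12.1 FPKM (SD, n = 3), next to Lamb1 at 331 ± 18.1 FPKM, and the libraries of this pair overlapped. Lama5 at 241 ± 3.93 FPKM, Nid1 at 233 ± 11.8 FPKM and Lamc1 at 226 ± 9.44 FPKM followed, again with overlap between neighbours. Lamb2 at 76.4 ± 3.35 FPKM, Hspg2 at 52.8 ± 2.19 FPKM, Agrn at 31.3 ± 1.71 FPKM and Nid2 at 0.415 ± 0.043 FPKM came below them without overlap. The order differed with the pre-miRs, where Lamb1 had the highest mean and was followed by Lama5, Dag1, Nid1 and Lamc1. In the pre-miR-29b-1 libraries no neighbours in this order overlapped. In the pre-miR-29a libraries Lama5 overlapped with Dag1, Dag1 with Nid1, Nid1 with Lamc1 and Lamb2 with Hspg2.

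Summed over the 9 genes, levels were 763, 793 and 818 FPKM in the pre-miR-29b-1 libraries, 799, 678 and 678 FPKM in the pre-miR-29a libraries, and 1513, 1487 and 1584 FPKM in the anti-miR-29a libraries. The sum was dominated by the laminin chains, Nid1 and Dag1.

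Each comparison was tested by limma on log2(FPKM + 1) in 1 fit over the 9504 genes that averaged 1 FPKM or more, and p-values were adjusted by the Benjamini-Hochberg method over all of them. Of the 8 members tested, 7 fell and 0 rose in pre-miR-29b-1 cells relative to anti-miR-29a, where 29.4% of all tested genes fell and 25.8% rose. With pre-miR-29a 8 of 8 fell, where 30.9% of all tested genes fell and 27.5% rose. Every library of the pre-miR lay below every anti-miR-29a library for these 7 and 8 members, as it did for 35.2% of tested genes in pre-miR-29b-1 cells and 33.1% in pre-miR-29a cells. The median log2 fold change over the 8 members was -0.71 in pre-miR-29b-1 cells and -0.88 in pre-miR-29a cells, beside medians of -0.0057 and -0.016 over all tested genes. A fall of at least 2-fold was found for the same 3 members, Dag1, Lamc1 and Nid1, with each pre-miR, in comparisons where 3.45% and 4.26% of tested genes fell by that much. Lama5 lay just short of that cut with pre-miR-29a, at a log2 fold change of -0.98. Over the alternative fits its change ran from -1.10 to -0.91, on both sides of the cut. Both comparisons share their anti-miR-29a libraries and so are not independent of each other. In bulk libraries, fewer cells expressing a gene and less of its RNA per cell cannot be told apart.

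**Figure D2:**
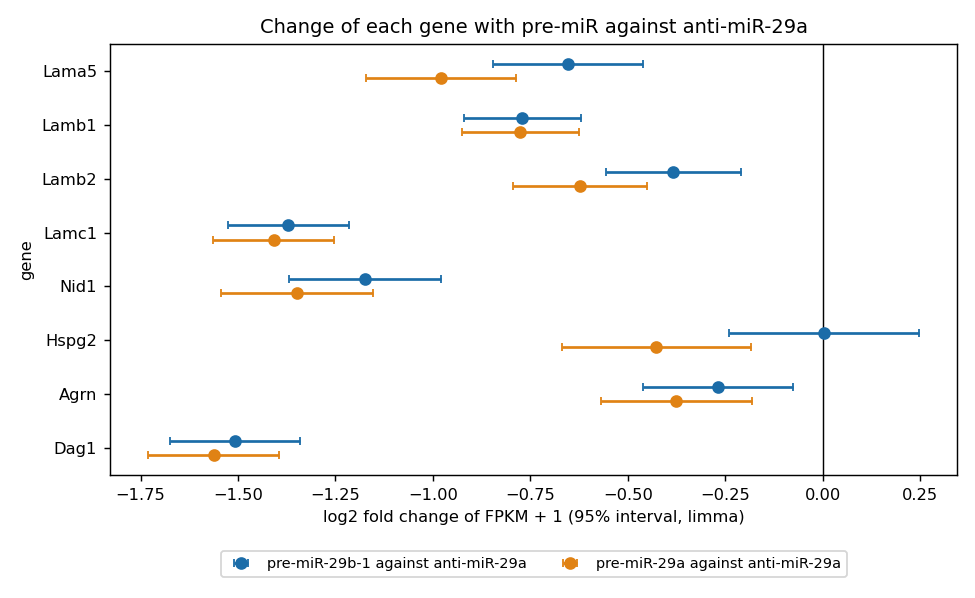
Log2 fold change with its 95% interval (limma) for the 8 members tested, for pre-miR-29b-1 (blue) and pre-miR-29a (orange), each relative to anti-miR-29a. Dag1, Lamc1 and Nid1 lie furthest below 0, and the Hspg2 interval for pre-miR-29b-1 includes 0.

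Lamc1 encodes laminin gamma-1, the gamma chain of most laminin trimers and the chain that nidogens bind. It had 82.4, 88.8 and 88.7 FPKM in pre-miR-29b-1 cells, 93.9, 79.0 and 80.9 FPKM in pre-miR-29a cells, and 223, 218 and 236 FPKM in anti-miR-29a cells. All 6 pre-miR libraries lay below all 3 anti-miR-29a libraries, and the pre-miR groups overlapped. The log2 fold change was -1.37 (SE 0.069, adjusted p 2.44e-07, limma) for pre-miR-29b-1 cells and -1.41 (SE 0.069, adjusted p 1.84e-07, limma) for pre-miR-29a cells. Ordered from the most negative change, Lamc1 was gene 133 of 9504 in pre-miR-29b-1 cells and gene 157 in pre-miR-29a cells.

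Lama5 encodes laminin alpha-5, the chain whose end carries the binding sites for integrins and dystroglycan. Its levels were 158, 152 and 149 FPKM in pre-miR-29b-1 cells, 143, 113 and 111 FPKM in pre-miR-29a cells, and 241, 237 and 245 FPKM in anti-miR-29a cells. The 3 groups did not overlap, with pre-miR-29a lowest. Lama5 changed by -0.65 on the log2 scale (SE 0.086, adjusted p 0.000137, limma) for pre-miR-29b-1 cells and by -0.98 (SE 0.086, adjusted p 7.87e-06, limma) for pre-miR-29a cells.

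Lamb1 and Lamb2 encode the beta-1 and beta-2 chains, which take the same place in the trimer. For Lamb1 the libraries read 178, 197 and 207 FPKM in pre-miR-29b-1 cells, 200.3, 196 and 183 FPKM in pre-miR-29a cells, and 313, 332 and 349 FPKM in anti-miR-29a cells. Lamb2 was lower throughout, at 56.4, 59.6 and 59.0 FPKM in pre-miR-29b-1 cells, 55.5, 48.9 and 44.0 FPKM in pre-miR-29a cells, and 76.6, 73.0 and 79.7 FPKM in anti-miR-29a cells. Pre-miR and anti-miR-29a libraries were separate for both chains, and the pre-miR groups overlapped for Lamb1 but not for Lamb2. Lamb1 changed by -0.77 (SE 0.067, adjusted p 8.52e-06, limma) for pre-miR-29b-1 cells and by -0.78 (SE 0.067, adjusted p 6.93e-06, limma) for pre-miR-29a cells. The changes of Lamb2 were smaller, at -0.38 (SE 0.077, adjusted p 0.00206, limma) for pre-miR-29b-1 cells and -0.62 (SE 0.077, adjusted p 7.88e-05, limma) for pre-miR-29a cells.

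Nid1 encodes nidogen-1, the linker between the laminin and collagen IV networks. It had 94.8, 103 and 111 FPKM in pre-miR-29b-1 cells, 104, 83.0 and 86.8 FPKM in pre-miR-29a cells, and 235, 219.9 and 243 FPKM in anti-miR-29a cells. Every pre-miR library lay below every anti-miR-29a library, by a margin far wider than the spread within groups. The log2 fold change was -1.17 (SE 0.087, adjusted p 2.98e-06, limma) for pre-miR-29b-1 cells and -1.35 (SE 0.087, adjusted p 1.03e-06, limma) for pre-miR-29a cells.

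Its paralog Nid2, for nidogen-2, was close to the limit of detection, with 0.405, 0.284 and 0.436 FPKM in pre-miR-29b-1 cells, 0.350, 0.190 and 0.290 FPKM in pre-miR-29a cells, and 0.406, 0.462 and 0.377 FPKM in anti-miR-29a cells. These values stand for 14.9 to 35.8 implied reads a library. Over each group's libraries the reads summed to 92 in pre-miR-29b-1 cells, 62 in pre-miR-29a cells and 86 in anti-miR-29a cells, with exact 95% Poisson intervals of 74.2 to 112.8, 47.5 to 79.5 and 68.8 to 106.2 that cover counting error only. The sums are not scaled for implied depth, which totalled 59070000, 54030000 and 50010000 reads in the same order of groups. All pre-miR-29a libraries lay below all anti-miR-29a libraries, while pre-miR-29b-1 overlapped with both. When genes of every level were tested against anti-miR-29a, Nid2 did not pass with either pre-miR. Its adjusted p was 0.611 in pre-miR-29b-1 cells and 0.0730 in pre-miR-29a cells (limma). Mean FPKM stood at 90.4% of the anti-miR-29a mean in pre-miR-29b-1 cells and at 66.6% in pre-miR-29a cells. Adding 1 FPKM shrinks changes at so low a level, so this test cannot show that Nid2 was unchanged.

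Hspg2 encodes perlecan and Agrn agrin, the proteoglycans of the set. Perlecan transcripts stood at 54.3, 51.8 and 52.8 FPKM in pre-miR-29b-1 cells, 48.4, 33.9 and 36.3 FPKM in pre-miR-29a cells, and 50.6, 53.0 and 55.0 FPKM in anti-miR-29a cells. The pre-miR-29b-1 libraries lay within the range of the anti-miR-29a libraries, and the pre-miR-29a libraries lay below both groups, with replicate 1 close to them. Hspg2 differed by 0.0038 (SE 0.109, adjusted p 0.980, limma) in pre-miR-29b-1 cells, with a 95% interval of -0.24 to 0.25, and changed by -0.43 (SE 0.109, adjusted p 0.00709, limma) for pre-miR-29a cells, or by -0.58 (adjusted p 3.00e-05, limma) without replicate 1 of that group. Of the 8 members tested, Hspg2 alone had no call for pre-miR-29b-1.

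Agrn had 24.9, 25.4 and 27.3 FPKM in pre-miR-29b-1 cells, 27.6, 22.5 and 22.0 FPKM in pre-miR-29a cells, and 29.6, 31.4 and 33.0 FPKM in anti-miR-29a cells. Both pre-miR groups lay below anti-miR-29a without overlap, though by a small margin. The log2 fold change was -0.27 (SE 0.086, adjusted p 0.0236, limma) for pre-miR-29b-1 cells and -0.38 (SE 0.086, adjusted p 0.00406, limma) for pre-miR-29a cells. The first of these calls was lost without pre-miR-29b-1 replicate 1 or 2 (adjusted p 0.0739 and 0.0685, limma), without anti-miR-29a replicate 2 or 3 (0.0587 and 0.0841, limma), with quantile normalization (0.0619, limma) and without moderation of the variances (0.0574, limma).

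Dag1 encodes dystroglycan, a receptor whose outer subunit binds laminin, perlecan and agrin through a matriglycan chain. It was the member with the largest fall in both comparisons, with 113, 116 and 124 FPKM in pre-miR-29b-1 cells, 126, 102 and 113 FPKM in pre-miR-29a cells, and 344, 322 and 343 FPKM in anti-miR-29a cells. The pre-miR groups overlapped with each other and lay at about 35.0% and 33.8% of the anti-miR-29a mean. The log2 fold change was -1.51 (SE 0.075, adjusted p 2.17e-07, limma) for pre-miR-29b-1 cells and -1.56 (SE 0.075, adjusted p 1.56e-07, limma) for pre-miR-29a cells. That made Dag1 gene 96 of 9504 from the most negative change in pre-miR-29b-1 cells and gene 100 in pre-miR-29a cells.

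**Figure D3:**
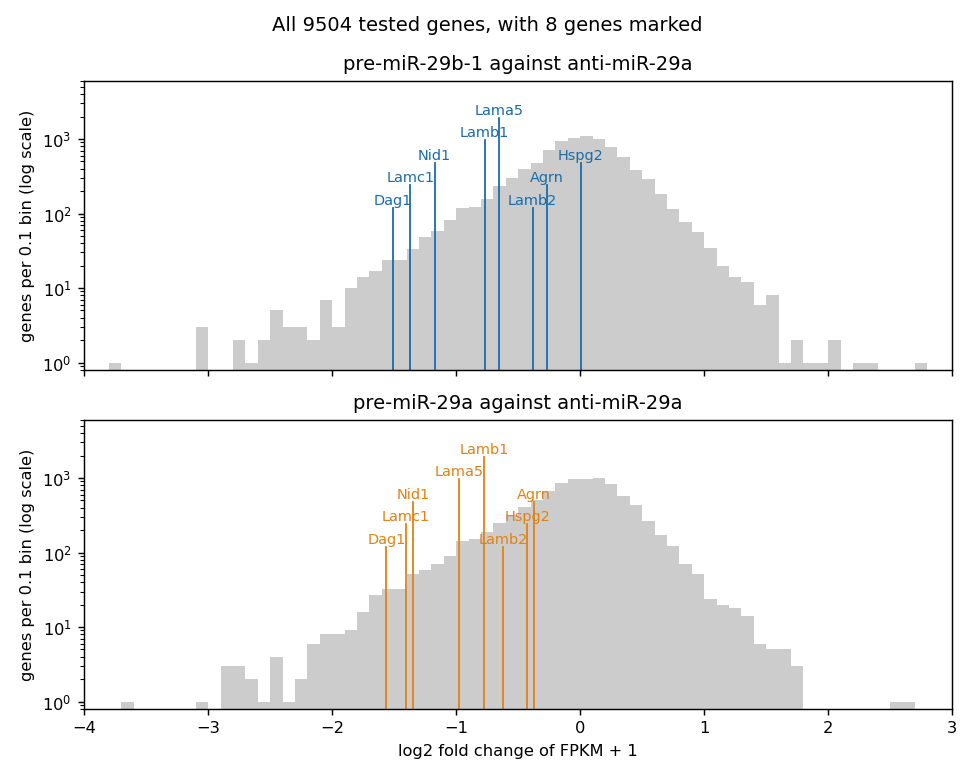
Number of tested genes per 0.1 bin of log2 fold change (log scale), for pre-miR-29b-1 above and pre-miR-29a below, each relative to anti-miR-29a, with lines at the 8 members. Dag1, Lamc1 and Nid1 lie in the lower tail, and Hspg2 lies at the middle of all genes in pre-miR-29b-1 cells.

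Chains of 1 trimer were also compared through the ratios between their transcripts. The ratio of Lamc1 to Lama5 was 0.520, 0.586 and 0.597 in pre-miR-29b-1 cells, 0.655, 0.698 and 0.729 in pre-miR-29a cells, and 0.924, 0.920 and 0.965 in anti-miR-29a cells. Gamma-1 transcripts thus stood at 0.520 to 0.729 of those of alpha-5 per coding length in the pre-miR libraries and at 0.920 to 0.965 in the anti-miR-29a libraries. The ratio of Lamc1 to Lamb1 was 0.462, 0.451 and 0.429 in pre-miR-29b-1 cells, 0.469, 0.403 and 0.442 in pre-miR-29a cells, and 0.712, 0.656 and 0.676 in anti-miR-29a cells. For both ratios every pre-miR library lay below every anti-miR-29a library. Since 3 libraries against 3 cannot give a two-sided exact p under 0.10, the 6 pre-miR libraries were tested together against the 3 anti-miR-29a libraries, for 4 ratios chosen for this set. The log2 ratio of Lamc1 to Lama5 differed by -0.58 between the pre-miRs and anti-miR-29a and that of Lamc1 to Lamb1 by -0.62, each with a two-sided exact permutation p of 0.0119, the smallest that 84 regroupings can give, and an adjusted p of 0.0159 over the 4 ratios. The ratios draw on the same libraries as the falls above, and members were chosen with earlier results of these data known. These p-values are therefore no independent support for unequal falls. Pooling treats both pre-miRs as 1 condition. For Lamc1 to Lama5 their libraries did not overlap, with mean log2 ratios of -0.82 for pre-miR-29b-1 and -0.53 for pre-miR-29a, so -0.58 averages unlike groups. The same limit holds for Lamb1 to Lamb2 below.

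Within the beta chains, Lamb1 made up 76.8% ± 0.92 of the summed FPKM of Lamb1 and Lamb2 in pre-miR-29b-1 cells (SD, n = 3), 79.6% ± 1.21 in pre-miR-29a cells and 81.3% ± 0.84 in anti-miR-29a cells. The ratio of Lamb1 to Lamb2 was 3.16, 3.30 and 3.51 in pre-miR-29b-1 cells, 3.61, 4.01 and 4.16 in pre-miR-29a cells, and 4.08, 4.55 and 4.38 in anti-miR-29a cells, so that the libraries of pre-miR-29a overlapped those of anti-miR-29a. Its log2 difference was -0.27 between the pre-miRs and anti-miR-29a, with an exact permutation p and adjusted p of 0.0476. That call ended when any of 8 of the 9 libraries was left out, with adjusted p of 0.0536 to 0.143 in those exact permutation tests, and was kept without pre-miR-29a replicate 3 (0.0357).

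Nid1 exceeded Nid2 by 234-fold to 361-fold in the pre-miR-29b-1 libraries, by 297-fold to 436-fold in the pre-miR-29a libraries, and by 476-fold to 644-fold in the anti-miR-29a libraries. The log2 ratio differed by -0.88 between the pre-miRs and anti-miR-29a (exact permutation p 0.0119, adjusted p 0.0159), and it rests on the few implied reads of Nid2. Nid1 per Lamc1, as a ratio of FPKM, was 1.18 ± 0.053 in pre-miR-29b-1 cells (SD, n = 3), 1.08 ± 0.027 in pre-miR-29a cells and 1.03 ± 0.024 in anti-miR-29a cells. Dag1 per Lamc1 was 1.36 ± 0.045 in pre-miR-29b-1 cells, 1.34 ± 0.059 in pre-miR-29a cells and 1.49 ± 0.045 in anti-miR-29a cells. These proportions were not tested.

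**Figure D4:**
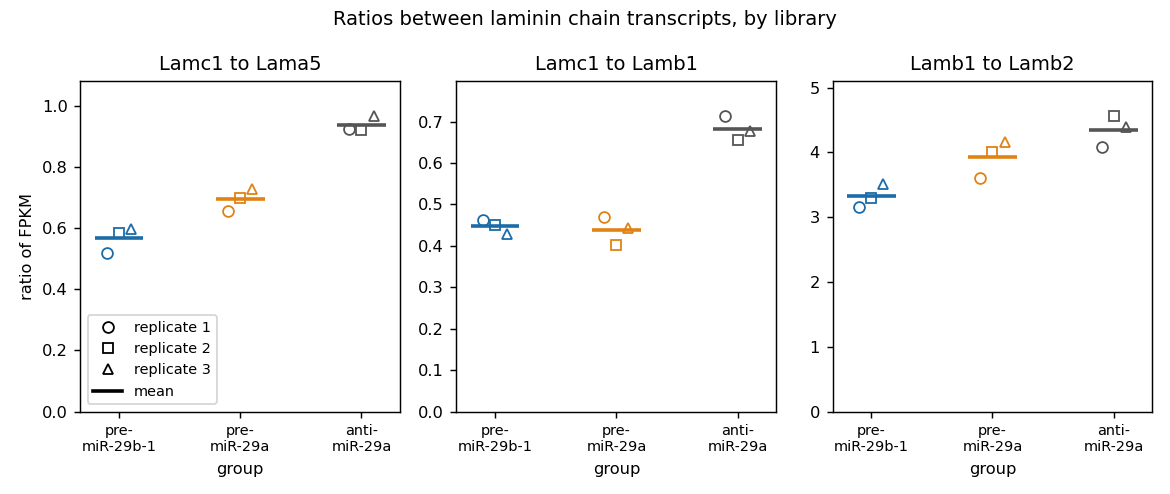
Ratio of FPKM between laminin chain transcripts for each library, with bars at the group means. The ratios of Lamc1 to Lama5 and of Lamc1 to Lamb1 are lower in all 6 pre-miR libraries than in the 3 anti-miR-29a libraries, and the libraries of pre-miR-29a overlap those of anti-miR-29a in the ratio of Lamb1 to Lamb2.

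The pattern over the 9 libraries was compared between members by the root mean square difference of their centred log2(FPKM + 1) values, as a description. Dag1 and Lamc1 were each other's nearest, at 0.081, and Nid1 was nearest to Lamc1, at 0.090. Lamb2 and Agrn were each other's nearest at 0.115. Lama5 was nearest to Lamb2 at 0.163 and Lamb1 nearest to Lama5 at 0.173, while Hspg2 was nearest to Agrn at 0.156, as was Nid2 at 0.135. Members that fell by similar amounts are near each other by construction of this measure. For Nid2 the added 1 FPKM flattens the pattern to a range of 0.297, so its nearness to Agrn says little.

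Both pre-miRs carry the same seed, and the direct comparison asks whether members respond differently to them. None of the 8 members passed (0 calls, limma), beside 0.0105% of all tested genes, and 3 of the 8 had an unadjusted p under 0.05, as did 1570 of all 9504 genes. These 3, Hspg2, Lama5 and Lamb2, had all pre-miR-29b-1 libraries above all pre-miR-29a libraries, which held for 10.2% of tested genes. Hspg2 differed by 0.43 (95% interval 0.19 to 0.67), Lama5 by 0.33 (0.13 to 0.52) and Lamb2 by 0.24 (0.067 to 0.41) on the log2 scale, with adjusted p of 0.220, 0.220 and 0.230 (limma). For the genes that fell most, the intervals included 0, from -0.12 to 0.19 for Lamc1 and from -0.11 to 0.22 for Dag1. The interval was -0.14 to 0.16 for Lamb1, -0.021 to 0.37 for Nid1 and -0.086 to 0.30 for Agrn. Nid2 differed by 0.11 when genes of every level were tested (adjusted p 0.448, limma). Adding 1 FPKM shrinks the change of so low a gene, whose mean FPKM in pre-miR-29b-1 cells was 135.6% of that in pre-miR-29a cells.

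This comparison depended on how the pre-miR-29a libraries entered the fit. With libraries weighted by their spread, 5 of the 8 members passed, all higher in pre-miR-29b-1 cells (limma). Of 9504 tested genes, 1764 were called higher there, and 38.2% were called in either direction. The weights of pre-miR-29a replicates 1, 2 and 3 were 0.213, 0.429 and 3.54, so that group rested mostly on replicate 3. Without pre-miR-29a replicate 1, 4 of the 8 members were higher in pre-miR-29b-1 cells, where 6.63% of 9500 tested genes were. That library had the highest value of its group for every member, so leaving it out could only raise these differences. The count of 4 therefore does not show that the members respond differently to the pre-miRs. Hspg2 was higher by 0.58 on the log2 scale (SE 0.054, adjusted p 0.0130, limma) and Lama5 by 0.44 (SE 0.043, adjusted p 0.0130, limma). Lamb2 was higher by 0.32 (adjusted p 0.0242, limma) and Nid1 by 0.27 (adjusted p 0.0410, limma). Lamc1, Lamb1, Agrn and Dag1 did not pass, with adjusted p of 0.162, 0.782, 0.0590 and 0.177 (limma). This fit has 2 pre-miR-29a libraries, which are assumed to vary like those of the other groups.

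**Figure D5:**
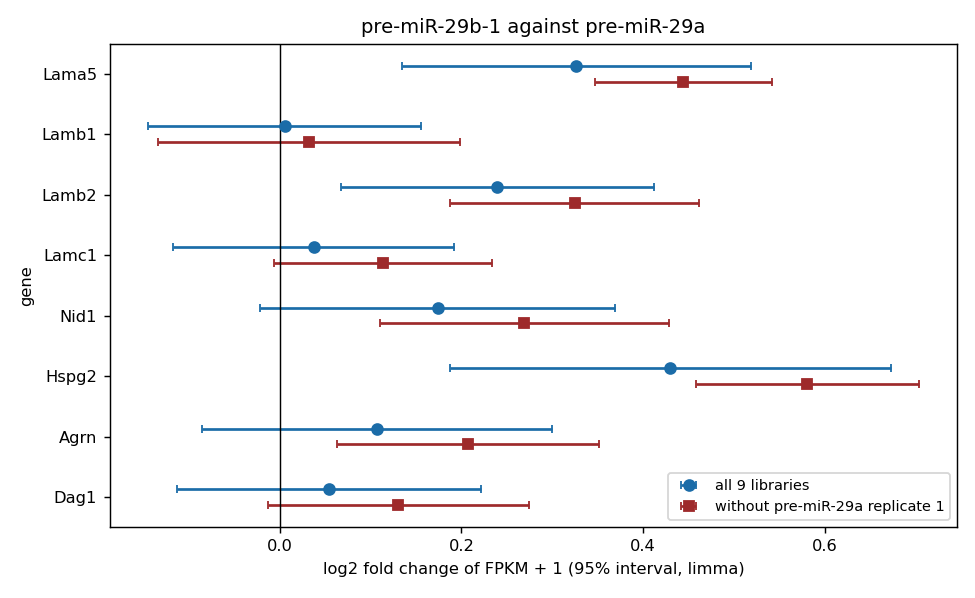
Log2 fold change with 95% interval (limma) of pre-miR-29b-1 cells over pre-miR-29a cells for the 8 members tested, with all 9 libraries (blue circles) and without pre-miR-29a replicate 1 (red squares). Hspg2 and Lama5 lie furthest above 0 in both fits, and Lamb1 lies near 0 in both.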

How the data were processed

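FPKM per gene in 9 libraries were deposited by the authors as 1 table. Per the submitters' processing notes, TopHat2 2.0.13 aligned the reads after FastQC, and Cuffnorm gave the FPKM. For Cuffnorm the version, scaling and strand setting are not given in the sources used. Per the file headers, alignments of mouse proteins (Ensembl release 66) to CriGri_1.0 served as models. Of the model lengths, 99.87% are multiples of 3, so lengths are coding lengths. Depth was read from low FPKM: with single models of 3000 or more coding bases, 99.1% to 100% of values up to 5 reads lay within 0.2 of a whole read. Implied reads are in the unit Cuffnorm divided by.

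Members were found by identifier. The members and lists were chosen with earlier results of these data known. The 5 lists of 50 other basement membrane genes were set by symbol and were not used, because 0 identifiers matched the 32251 genes of the RefSeq table (CriGri-PICRH-1.0), which likewise left cell markers unused. All members are named, in every comparison. The limma package 3.58.1 (R 4.3.3) tested log2(FPKM + 1) with a trended variance, a mean of at least 1 FPKM, all 9 libraries in 1 fit, two-sided, and an adjusted p threshold of 0.05. Adding 1 FPKM shrinks the changes of low genes. Ratios were tested by exact permutation in Python 3.11.15. Both tests were run on simulated data with independent errors of equal spread across libraries. The libraries here had unequal weights and partly correlated deviations, which those runs do not cover. Alternatives changed the pseudocount, filter, scaling, variance model, weights, libraries in the fit and replicate block, and left out each library.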

Additional observations from a re-analysis of the deposited data

How the results depend on the processing

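The counts of members lower than with anti-miR-29a were 6 to 7 for pre-miR-29b-1 and 8 for pre-miR-29a under every alternative run, with Agrn the member lost. Over the 304 alternative fits of single members against anti-miR-29a, 295 kept direction and call. Agrn lost its call with pre-miR-29b-1 in 6 of them, and Hspg2, near 0 with pre-miR-29b-1, turned sign in 3, with -0.038 with array weights and -0.027 to 0.032 without 1 library. Between the pre-miRs the count of 0 became 5 with array weights, and 0 to 4 without 1 library, the highest without pre-miR-29a replicate 1. Log2 differences between the pre-miRs also crossed 0 without 1 library, over -0.0098 to 0.11 for Lamc1, -0.042 to 0.064 for Lamb1 and -0.023 to 0.13 for Dag1. The difference in the log2 ratio of Lamb1 to Lamb2 was -0.31 to -0.23 without 1 library, and fewer libraries also leave fewer regroupings. With the replicate block, members called stayed at 7, 8 and 0, and that ratio kept its value of -0.27 with an adjusted p of 0.0741 (exact permutation within replicate numbers, 27 regroupings). The labels do not say that a number marks a shared culture or day. Deviations from the group means correlated between libraries of 1 number at r of -0.018 to 0.295, over 0.1 in 6 of 9 pairs, and libraries correlated best with their own number in 13 of 18 checks, a hint from the data and not the design. The cause of these changes was not tested. Nid2 was the member with the fewest implied reads, and its mean FPKM lay under the filter on low values. The pathway lists could not be run, since no identifier matched a symbol.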
